A study of Mus musculus with 2 samples.

Results

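Collagen chain genes were all genes whose symbol has the form Col, number, a, number (as in Col1a1), and 44 of the 32285 genes in the count tables met that rule. Collagens are secreted proteins in which 3 chains wind into a triple helix. Fibrillar collagens, such as types I and III, give connective tissue its tensile strength, type IV forms the meshwork of basement membranes around vessels, and other families coat fibrils or anchor membranes to them. In tumors, fibroblasts are the best known source of fibrillar chains, and vessel cells are the best known source of basement membrane chains.

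Cells were taken from subcutaneous syngeneic fibrosarcoma tumors, for which wild-type C57BL/6 mice were the hosts. Each tumor was digested with collagenase and DNase for 45 minutes at 37 degrees, and both groups shared that digestion and the lysis of red cells. A magnetic column then gave a flowthrough (iron-negative) and an eluate (iron-positive), and each fraction was read as 1 library with the 10x Genomics 3' v3 kit. How many tumors went into a library was not given in the sources used here. There was therefore 1 library in each group, cells are not replicates, and no difference below has a replicate check or a p-value. Intervals are exact 95% intervals and cover counting error only.

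There were 10124 cell barcodes with 132796517 UMIs (unique molecular identifiers, counted as molecules) from the iron-negative fraction and 13668 with 129921053 UMIs from the iron-positive fraction. After cells with over 15% mitochondrial UMIs or under 200 genes were left out, 9403 and 12143 cells remained, with medians of 13017 and 7349 UMIs. The libraries shared 85 barcodes. Cells were gated by markers that include no collagen gene, and the gate kept 12 and 657 endothelial cells, 1 and 118 pericytes (the contractile cells that wrap small vessels), 69 and 225 mesenchymal cells, 8481 and 6991 phagocytes and 22 and 70 lymphoid cells, in iron-negative and iron-positive order. These numbers follow a column sort and a gap in depth and are not tissue shares. In the iron-positive library every marker of each stromal class was detected in its own class, with summed levels of 4163 CPM (UMIs of a gene scaled to 1000000 UMIs of the class) for endothelial, 8760 CPM for pericyte and 4265 CPM for mesenchymal markers. In the phagocytes the same 3 lists summed to 58.7, 8.92 and 14.4 CPM. The gates used these markers, so the sums describe the gated cells and are no independent check of them. No doublet caller was run, and 49 and 478 cells with stromal or lymphoid markers beside a phagocyte share of UMIs were set aside.

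Collagen transcripts were concentrated in the 3 classes gated as stromal. No marker list told fibrosarcoma cells from host mesenchymal cells, so the mesenchymal class may hold both. They made up 2.41% of all UMIs in mesenchymal cells, 1.45% in pericytes and 0.666% in endothelial cells of the iron-positive library, against 0.0147% in phagocytes. In the iron-negative library the mesenchymal share was 0.974% and the phagocyte share 0.00534%. Of the 44 chains, 19 reached 50 CPM in a class of at least 50 cells, 5 peaked between 10 and 50 CPM and 20 stayed under 10 CPM. Among the last, Col25a1, Col26a1 and Col2a1 had no UMI in any kept cell. Reads come from the 3' end of transcripts and are not divided by length, so levels are compared below for the same chain between classes and not between chains.

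**Figure D1:**
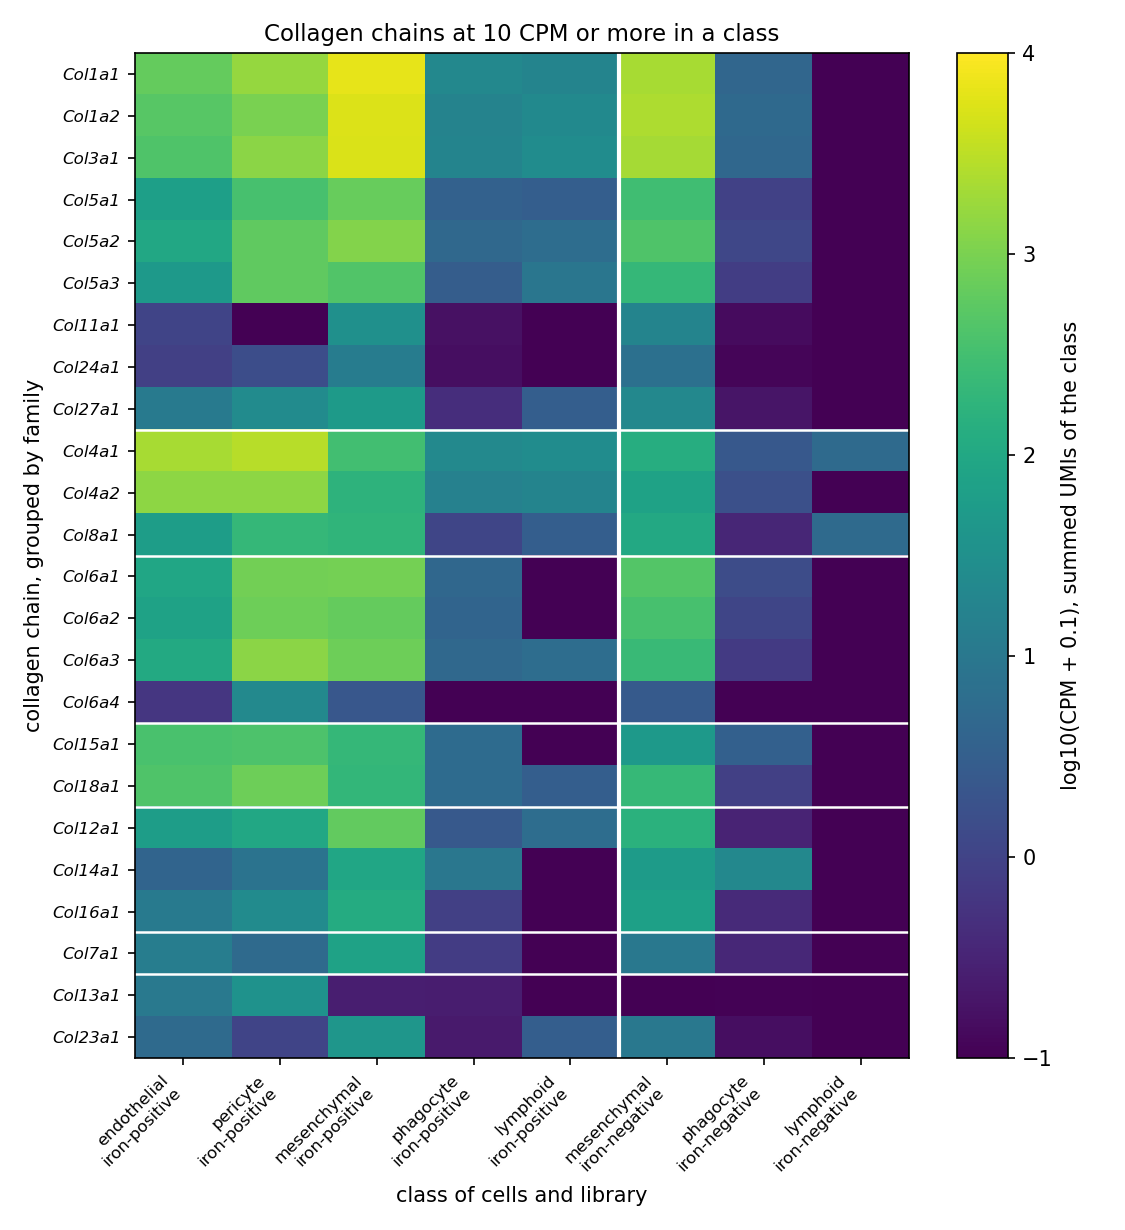
Color gives log10(CPM + 0.1) of the 24 chains that reached 10 CPM in a class of at least 50 cells (rows, grouped by family). Columns are the classes drawn for each library. In the iron-positive columns Col1a1, Col1a2 and Col3a1 are brightest in mesenchymal cells, and Col4a1 and Col4a2 in endothelial cells and pericytes. The iron-negative endothelial and pericyte classes, with 12 cells and 1 cell, are not drawn. In the phagocyte columns Col14a1 is brighter in the iron-negative library (21.2 CPM) than in the iron-positive library (9.5 CPM), while Col1a1 and Col4a1 are dimmer there.

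Most fibrillar chains were highest in mesenchymal cells of the iron-positive library, and Col5a3 was highest in pericytes. Col1a1, the chain that type I collagen carries in 2 copies, stood at 6590 CPM in iron-positive mesenchymal cells, 1616 CPM in pericytes, 666 CPM in endothelial cells and 21.1 CPM in phagocytes. Its partner Col1a2 stood at 5573, 1007, 510 and 16.9 CPM in the same order. Both chains of type I thus fell in the same order over the 4 classes, and the mesenchymal level was 4.08 times that of pericytes for Col1a1 (3.94 to 4.23) and 5.53 times for Col1a2 (5.30 to 5.78). Col3a1, the chain of the homotrimeric type III collagen found beside type I in soft tissue, stood at 5110, 1374, 411 and 18.1 CPM. The type V chains, which type I fibrils need to start, showed a narrower gap between mesenchymal cells and pericytes. Col5a1 was 686 CPM in mesenchymal cells and 352 CPM in pericytes. Col5a2 was 1155 and 599 CPM. Col5a3 was 592 CPM in pericytes against 430 CPM in mesenchymal cells, so the fibrillar family did not share 1 order. In the iron-negative library Col1a1 was 2242 CPM in mesenchymal cells, 2393 CPM over 12 endothelial cells and 4302 CPM in the single pericyte. Col27a1, a small fibrillar chain known from cartilage, was 53.9 CPM in mesenchymal cells and 25.8 CPM in pericytes. The 2 lower fibrillar chains, Col11a1 and Col24a1, were at 31.8 and 12.4 CPM in mesenchymal cells and at most 1.41 CPM in the other stromal classes.

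The basement membrane chains were shared by endothelial cells and pericytes. Col4a1 stood at 2189 CPM in endothelial cells, 2866 CPM in pericytes and 302 CPM in mesenchymal cells. Col4a2, which joins Col4a1 in the most common type IV trimer, stood at 1423, 1433 and 167 CPM. The endothelial and pericyte levels of Col4a2 differed by a ratio of 1.01 (0.969 to 1.05), within counting error, while both lay over 8 times above mesenchymal cells. Col8a1, a short network chain of vessel walls and the membrane under corneal endothelium, was 216 CPM in pericytes, 187 CPM in mesenchymal cells and 61.6 CPM in endothelial cells. Col15a1 and Col18a1, the basement membrane multiplexins, whose ends can be cut off as inhibitors of vessel growth, also reached the vessel classes. Col15a1 was 362 CPM in endothelial cells, 394 CPM in pericytes and 210 CPM in mesenchymal cells. Col18a1 was 420, 794 and 209 CPM. Neither multiplexin separated endothelial cells from pericytes by more than 1.89 times.

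Type VI collagen, whose 3 chains build beaded filaments around cells, was a feature of pericytes and mesenchymal cells alike. Col6a1 was 875 CPM in pericytes, 905 CPM in mesenchymal cells and 92.2 CPM in endothelial cells. Col6a2 was 793, 669 and 75.1 CPM. Col6a3 was 1369, 793 and 109 CPM, so it was 1.73 times higher in pericytes than in mesenchymal cells (1.65 to 1.81) while Col6a1 was level between them. Col6a4, a chain related to Col6a3, was 22.5 CPM in pericytes, 2.18 CPM in mesenchymal cells and 0.531 CPM in endothelial cells.

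The fibril-associated and anchoring chains were highest in mesenchymal cells. Col12a1, which lies on fibrils under load, was 642 CPM in mesenchymal cells, 101 CPM in pericytes and 59.7 CPM in endothelial cells. Col14a1, its close relative on mature fibrils, was 92.3 CPM in mesenchymal cells, 7.98 CPM in pericytes and 4.07 CPM in endothelial cells. Col16a1, another fibril-associated chain, was 118, 25.8 and 11.3 CPM. Col7a1, which forms the anchoring fibrils under epithelia, was 74.9 CPM in mesenchymal cells, 12.9 CPM in endothelial cells and 5.16 CPM in pericytes. The 2 transmembrane chains above 10 CPM divided. Col23a1 was 42.2 CPM in mesenchymal cells and 0.938 CPM in pericytes, while Col13a1 was 34.7 CPM in pericytes, 10.4 CPM in endothelial cells and 0.167 CPM (1 UMI) in mesenchymal cells.

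A chain was counted as marking a class when it reached 50 CPM there and 5 times its level in each of the other stromal classes and in phagocytes, in the iron-positive library. Of 19 chains at 50 CPM in mesenchymal cells, 4 marked them (Col1a2, Col7a1, Col12a1 and Col14a1), where 2.96% of all genes at that level did. Of 15 chains at 50 CPM in endothelial cells none marked them, against 4.41% of all genes, and of 15 in pericytes none did, against 2.81%. Among the endothelial 15, only Col4a1, Col4a2, Col8a1, Col15a1 and Col18a1 reached 50 CPM without the cells that carried markers of another stromal class, described below. No chain reached 50 CPM in phagocytes, where 9.85% of genes at that level marked the class. The count of mesenchymal chains turned on the ratio asked for: 7 chains passed at 3 times and none at 10 times. With the minimum lowered to 10 CPM, Col6a4 marked pericytes.

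Col3a1 and Col7a1 were highest in mesenchymal cells, and Col15a1 was higher in endothelial cells and pericytes than in mesenchymal cells. The sequences before the start of these 3 chains are printed here as examples, and the shared start of the type IV pair follows. They are from RefSeq on GRCm38.p6, are the 250 bases before the annotated start on the gene's strand, and overlap no annotated exon. Col3a1 lies at chr1:45311288-45311537 (+), Col7a1 at chr9:108953336-108953585 (+) and Col15a1 at chr4:47207762-47208011 (+). Capitals mark 3 motifs, searched on both strands, with no overlap between matches here: the CCAAT box, the GC box core GGGCGG and the sequence TATAAA.
Col3a1: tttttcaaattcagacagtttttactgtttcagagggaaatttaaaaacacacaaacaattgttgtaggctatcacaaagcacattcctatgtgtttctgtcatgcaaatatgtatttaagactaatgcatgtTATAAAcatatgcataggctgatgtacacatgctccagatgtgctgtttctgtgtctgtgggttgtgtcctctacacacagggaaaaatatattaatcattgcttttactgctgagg
Col7a1: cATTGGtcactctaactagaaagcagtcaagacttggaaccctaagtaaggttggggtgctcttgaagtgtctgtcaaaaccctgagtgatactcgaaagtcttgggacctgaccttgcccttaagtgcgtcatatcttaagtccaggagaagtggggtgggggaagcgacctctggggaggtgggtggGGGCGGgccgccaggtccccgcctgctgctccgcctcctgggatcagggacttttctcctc
Col15a1: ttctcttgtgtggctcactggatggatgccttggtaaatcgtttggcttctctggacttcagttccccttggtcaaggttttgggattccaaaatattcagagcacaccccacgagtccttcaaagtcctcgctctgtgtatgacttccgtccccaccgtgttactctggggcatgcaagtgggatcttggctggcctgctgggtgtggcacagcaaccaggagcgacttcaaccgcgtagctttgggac
Col3a1 held TATAAA on the printed strand, Col7a1 held GGGCGG on the printed strand and CCAAT on the other, and Col15a1 held none of them in this window. CCAAT was in 34.2% of 38 collagen entries and 33.8% of all 32851 entries of that length, TATAAA in 13.2% and 12.4%, and GGGCGG in 57.9% and 32.7%. The median share of G and C bases was 59.0% in the collagen entries and 52.4% in all entries. Its part in the GGGCGG shares was not tested. Of the 38 collagen entries, 20 overlapped no annotated exon. A match is a description of the letters and not a binding site. Of the 44 chains, 35 had an entry, and those of Col14a1, Col1a1 and Col12a1 were among the chains without one.

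Col4a1 and Col4a2 lie head to head on chromosome 8 and their annotated first exons share 22 bases, chr8:11312805-11312826, which is why their stretch is shown on both strands.
Col4a2 (+): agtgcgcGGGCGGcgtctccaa
Col4a1 (-): ttggagacgCCGCCCgcgcact
The GGGCGG in this stretch reads in the Col4a2 direction. The ratio of Col4a1 to Col4a2 UMIs was 1.54 in endothelial cells (1.51 to 1.56), 2.0 in pericytes (1.91 to 2.09) and 1.81 in mesenchymal cells (1.67 to 1.95), so the pair's ratio lay between 1.54 and 2.0 over classes whose Col4a1 level differed by up to 9.48 times.

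The fibrillar signal of the endothelial gate came from a minority of its cells. Of the 657 iron-positive endothelial cells, 171 also carried 2 or more markers of another stromal class, with a median of 42954 UMIs, and 486 carried at most 1, with a median of 5727.5 UMIs. Col1a1 summed to 1252 CPM in the first set and 16.5 CPM (13.9 to 19.6) in the second. Within the first set the median cell held 2 Col1a1 UMIs, against a mean of 65.3, so a part of those cells carried most of the sum. Col3a1 was 768 and 14.3 CPM, Col1a2 was 958 and 13.3 CPM, and Col6a3 was 206 and 2.74 CPM. The level in the second set lay below the 21.1 CPM of Col1a1 in phagocytes of the same library. Col4a1 was 2103 CPM in the first set and 2286 CPM in the second, Col4a2 was 1402 and 1446 CPM, Col15a1 was 338 and 388 CPM, and Col18a1 was 426 and 413 CPM. The basement membrane chains were thus as high without those cells, and the fibrillar chains were not. In the iron-negative library 7 of the 12 endothelial cells passed the same limit, with no Col1a1 UMI and Col4a1 at 2384 CPM, and the other 5 had Col1a1 at 3065 CPM and Col4a1 at 2622 CPM when summed. The median over those 5 cells was 1 Col1a1 UMI, against a mean of 290 UMIs, so the sum rests on a few of them. Whether the cells with markers of several classes are doublets was not tested. With the same limit on all stromal classes, an alternative added after the data were seen, 7 chains marked mesenchymal cells, of which Col1a2, Col7a1 and Col14a1 were among the 4 above. Only 20 of the 118 pericytes passed it, and in them Col1a1 was 937 CPM and Col6a3 was 1459 CPM.

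**Figure D2:**
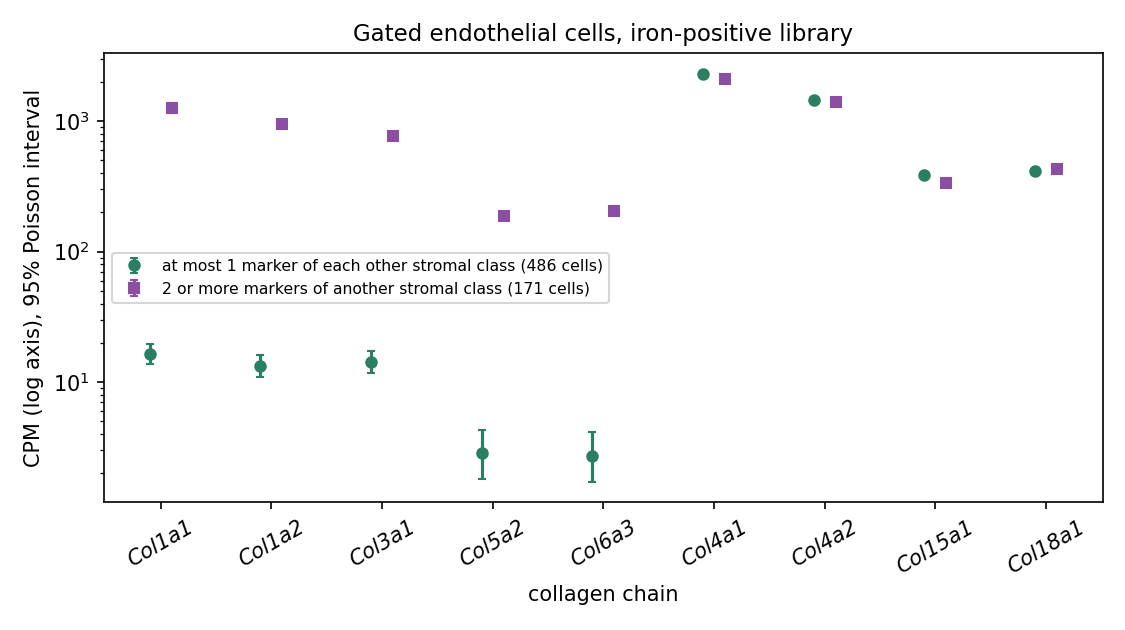
Points give the CPM of 9 chains (log axis) in the 486 iron-positive endothelial cells with at most 1 marker of each other stromal class (circles) and in the 171 cells with more (squares), with 95% Poisson intervals. Col1a1 lies at 16.5 and 1252 CPM, while Col4a1 lies at 2286 and 2103 CPM.

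The mesenchymal gate was split by UMIs of Sox9, a transcription factor, and Grem1, a secreted BMP antagonist, and the fibrillar chains differed across the split. In 60 iron-positive cells with neither gene, Col1a1 was 12151 CPM, and in the 89 cells with both it was 3831 CPM. In the iron-negative library the same values were 12711 CPM in 10 cells and 1143 CPM in 48 cells. Col3a1 was 9674 and 2929 CPM in the iron-positive library and 12494 and 1085 CPM in the iron-negative library, so both fibrillar chains were lower in the cells with both genes in each library. Col14a1 was 177 and 66.6 CPM (iron-positive) and 577 and 21.4 CPM (iron-negative). Col18a1 went the other way, at 53.6 and 287 CPM in the iron-positive library and 15 and 252 CPM in the iron-negative library. Depth moved with the split: cells with both genes had medians of 34583 and 63875.5 UMIs and cells with neither had 4781 and 9909.5 UMIs, in iron-positive and iron-negative order. The part of depth in these differences was not tested.

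Between the libraries, mesenchymal cells held more collagen in the iron-positive eluate. Of 22 chains at 10 CPM or more in either library, 13 were at least 2-fold higher, where 3.94% of all genes were, and 0 were at least 2-fold lower, where 2.03% were. The median log2 ratio of the chains was 1.21, against -0.08 for all genes measured. Col7a1 was 74.9 CPM against 10.1 CPM, a ratio of 7.38. Col15a1 was 210 against 48.5 CPM (4.33), and Col12a1 was 642 against 157 CPM (4.10). Col1a1 was 6590 against 2242 CPM (2.94), whereas Col18a1 was level at 209 against 227 CPM (0.919). These ratios compare 1 library with 1 library, and the make-up of the gate moved with them: cells with both Sox9 and Grem1 were 48 of 69 in the iron-negative library and 89 of 225 in the iron-positive library. Among cells with neither gene, Col1a1 did not differ by much (12151 against 12711 CPM), and Col3a1 was lower in the iron-positive library (9674 against 12494 CPM). Among cells with both, Col1a1 was 3831 against 1143 CPM. Of 15 measured anchor genes, which are no collagen, 5 were at least 2-fold higher as well. At 1000 UMIs per cell the count of higher chains was 7 rather than 13, and 1 chain was lower.

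In phagocytes, collagen UMIs were sparse, and they were set beside an estimate of free RNA, the transcripts of lysed cells that enter droplets. There were 6316 collagen UMIs in 8481 iron-negative phagocytes (0.745 per cell) and 10371 in 6991 iron-positive phagocytes (1.48 per cell). Lymphoid cells, which are not known to make collagen, held 0.0909 UMIs per cell (0.0110 to 0.328) and 0.757 UMIs per cell (0.567 to 0.990), at medians of 7655 and 3449.5 UMIs against 13289 and 9015 in phagocytes. As a share of all UMIs, collagen was 0.00534% in iron-negative phagocytes and 0.00106% in iron-negative lymphoid cells, where it rests on 2 UMIs. In the iron-positive library it was 0.0147% in phagocytes and 0.0158% in lymphoid cells. The shares were thus close in the iron-positive library and higher in phagocytes in the iron-negative library. A UMI of Col1a1 was found in 5.92% of iron-negative phagocytes (5.43 to 6.44) and in 18.1% of iron-positive phagocytes (17.2 to 19), and in 8.57% of the 70 iron-positive lymphoid cells (3.21 to 17.7).

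Deposited tables hold called cells only, with at least 500 UMIs, so the free RNA was estimated from 16 stromal anchor genes that are no collagen and gate no cell. Their UMIs in phagocytes were a median of 7.40% of those in the gated stromal cells of the iron-negative library and 3.38% in the iron-positive library. The anchors were not uniform, from 4.61% for Igfbp7 to 355% for Nid2 in the iron-negative library and from 2.41% for Myl9 to 11.1% for Nid2 in the iron-positive library. At the median rates the stromal chains would give 3237 and 9734 UMIs in phagocytes, which is 51.3% and 93.9% of those observed. Col14a1 and Col11a2 alone accounted for 44.8% of the observed UMIs in the iron-negative library and 7.79% in the iron-positive library. Without that pair the observed UMIs were 1.08 and 0.985 times the expected ones. Both chains lay far above their expected levels, so leaving them out lowers the ratio by itself and the remainder is no check of the estimate. The iron-negative value also joins chains on both sides. Among the other chains with at least 100 stromal UMIs they ran from 0.494 times (Col12a1) to 11.4 times (Col15a1). Col1a1 had 527 UMIs against 723 expected in the iron-negative library and 1492 against 1831 in the iron-positive library. Col4a1 had 264 against 159 and 1553 against 1523. Of the chains with at least 100 stromal UMIs, 14 of 17 in the iron-negative library lay within 2-fold of the expected level. In the iron-positive library 20 of 22 did. The same share over all genes was not counted, so these counts do not set the chains apart from other genes.

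**Figure D3:**
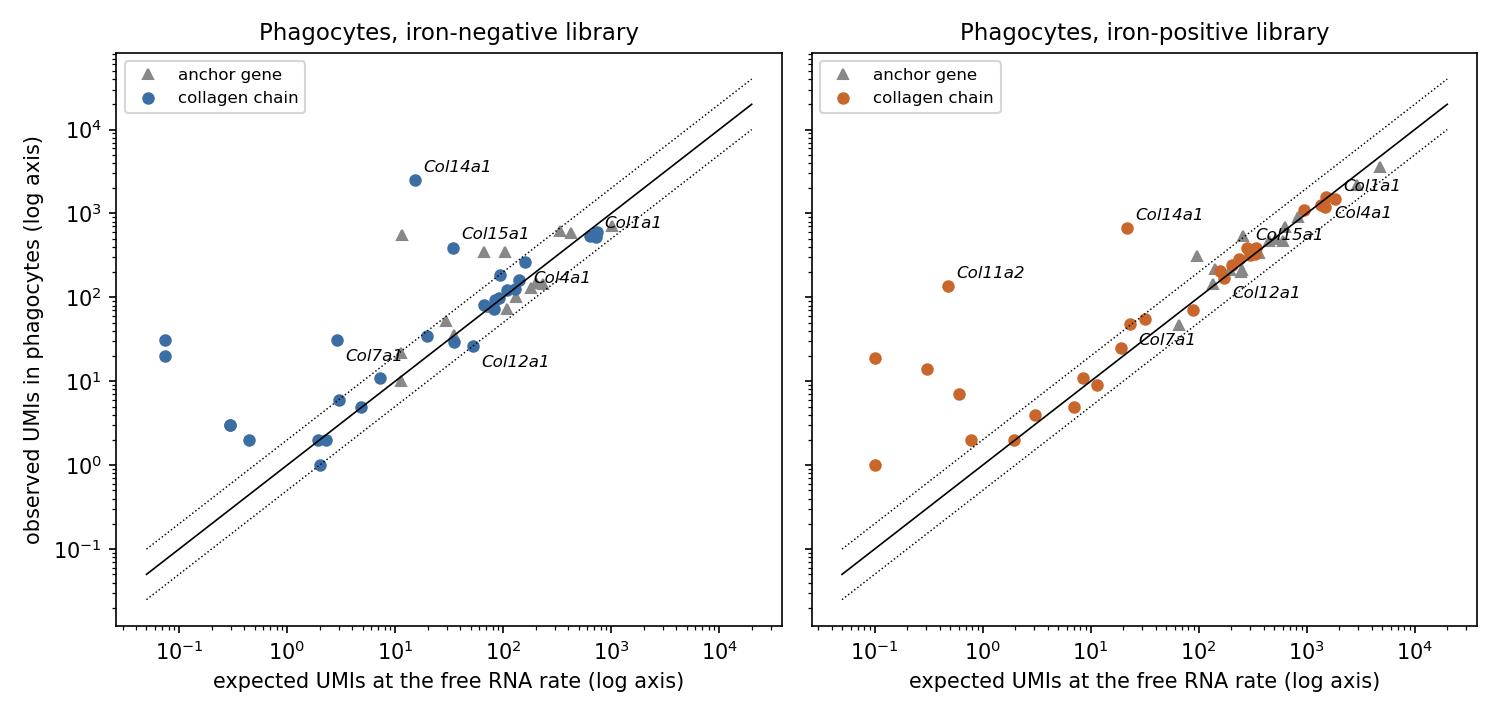
Each circle is a collagen chain and each triangle an anchor gene, by UMIs expected in phagocytes at the median anchor rate (horizontal, log axis) and UMIs observed (vertical, log axis), for each library. Genes at 0 on either axis are not drawn. The solid line marks equality and the dotted lines 2-fold either way. Col14a1 lies far above the line in both libraries, while Col1a1 and Col4a1 lie within the dotted lines.

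Depth within the phagocytes gave a further reading of these chains. Phagocytes were ranked by total UMIs and divided into 4 equal bins. From the shallowest bin to the deepest, the median depth rose 4.41 times in the iron-negative and 6.94 times in the iron-positive library. Col1a1 rose from 0.0396 to 0.0925 UMIs per cell (2.33 times) and from 0.107 to 0.308 (2.88 times). Col4a1 rose 2.25 and 2.39 times. Both grew less than the depth did. Col14a1 rose from 0.0707 to 0.577 UMIs per cell (8.16 times) and from 0.0109 to 0.217 (20 times), more than the depth in both libraries.

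**Figure D4:**
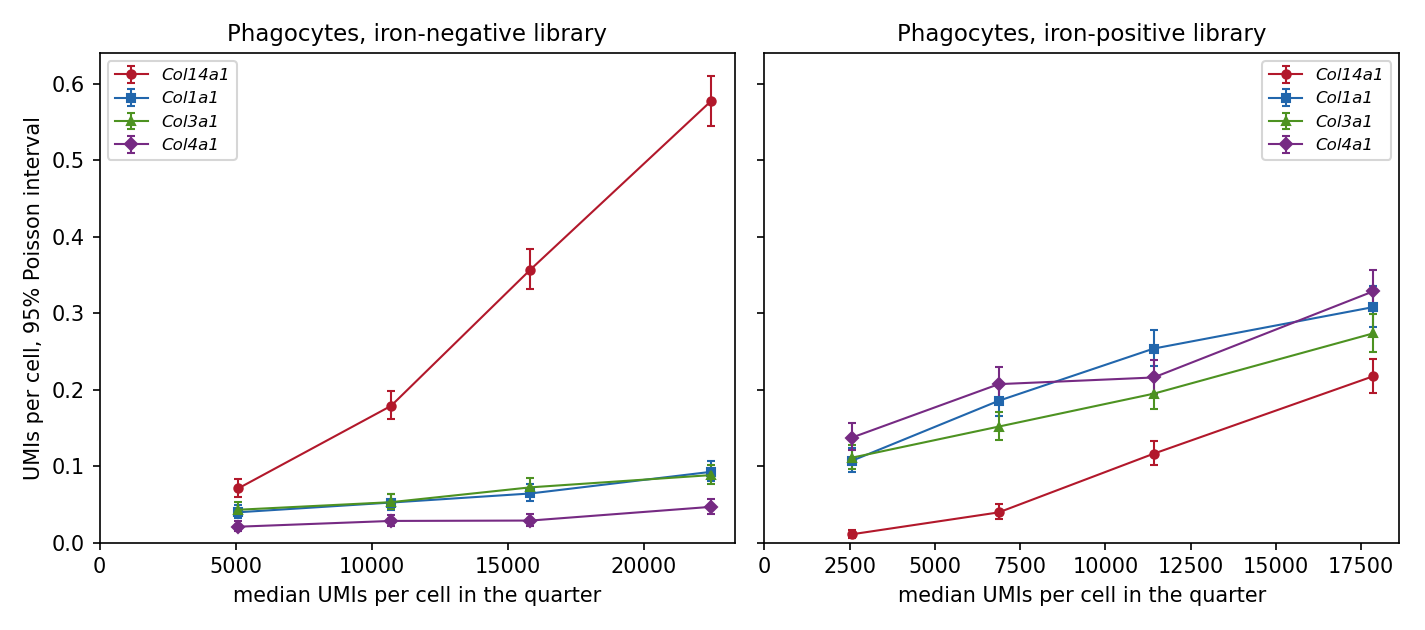
Points give UMIs per phagocyte of 4 chains in 4 equal bins of the cells by total UMIs, plotted at the median depth of the bin, with 95% Poisson intervals. In the iron-negative library Col14a1 reaches 0.577 UMIs per cell in the deepest bin, where Col1a1 reaches 0.0925.

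Chains were named as above free RNA when their phagocyte level was at least 2 times both the lymphoid and the expected level, with at least 10 UMIs, a minimum added after the values were seen and without which 13 and 9 chains passed. These were Col4a4, Col7a1, Col9a3, Col11a2, Col14a1, Col15a1 and Col20a1 in the iron-negative library and Col7a1, Col9a3, Col11a2, Col14a1 and Col20a1 in the iron-positive library. Lymphoid cells held 0 UMIs of each of the 7 in the iron-negative library and of each of the 5 in the iron-positive library. Given the depth of these few cells, 3 UMIs would be 15.9 CPM in the iron-negative and 8.94 CPM in the iron-positive library. The exact 95% limit of a 0 count is higher, and in the iron-positive library it exceeds the 9.5 CPM of Col14a1. The lymphoid level thus bounds Col14a1 loosely in the iron-negative library and not in the iron-positive library, and it bounds the others in neither. The expected level was also 0 for Col4a4 and Col11a2 in the iron-negative library, with no stromal UMI in 82 cells, and 0.074 UMIs for Col9a3 and Col20a1, from 1 stromal UMI each. Any 10 UMIs of these 4 passed there, so their passing is no comparison. Col7a1, with 2.89 UMIs expected in that library, would also have passed with any 10 UMIs. Expected levels in the iron-positive library were 0.304 UMIs for Col9a3, 0.101 for Col20a1 and 0.474 for Col11a2. Any 10 UMIs of those chains passed there as well, so that passing is no comparison either. The same rule was also passed by the anchors Nid2, Tpm2 and Cavin1 in the iron-negative library and by Nid2 in the iron-positive library. The share of all genes that would pass it was not counted.

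Col14a1 was the chain with the most phagocyte UMIs in the iron-negative library. It had 2508 UMIs in phagocytes (21.2 CPM) against 15.3 expected from 206 stromal UMIs, a ratio of 164 (158 to 171). In the iron-positive library it had 671 UMIs (9.5 CPM) against 21.6 expected from 638 stromal UMIs, a ratio of 31.1 (28.8 to 33.5). Intervals of ratios to an expected level, here and below, cover the counting error of the phagocyte UMIs alone. They take the expected level as fixed, without the error of the stromal UMIs or the spread of the anchors. A UMI was found in 18.5% of iron-negative phagocytes (17.7 to 19.3) and 6.94% of iron-positive phagocytes (6.35 to 7.56), and in none of 22 and 70 lymphoid cells, where the upper bounds are 15.4% and 5.13%. It was also held unevenly: a single iron-negative phagocyte had 12 UMIs, and 32.9% of the chain's UMIs sat in 208 cells with 3 or more. For 8 other chains in the same cells that share ran from 0 to 4.17% (Col1a2), but each had fewer UMIs, which lowers such a share. In the iron-positive library Col1a1 also reached 12 UMIs in a cell. Col14a1 lies at chr15:55307750-55520803 (+, mm10), and annotated genes run on the opposite strand within it, so its counts are uncertain unless the counting used strand, on which the sources used here say nothing. The same holds for Col15a1 and Col9a3. Opposite-strand genes were annotated for 18 of all 44 chains, among them Col4a1, Col4a2, Col12a1 and Col18a1.

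Col11a2, a fibrillar chain known from cartilage, had 323 UMIs in iron-negative phagocytes and 0 in gated stromal cells, and 137 UMIs in iron-positive phagocytes against 14 in stromal cells. It stayed at 2.73 and 1.94 CPM, low levels spread over 3.54% and 1.86% of the cells, with at most 3 UMIs in a cell. Col15a1 had 390 UMIs against 34.4 expected in the iron-negative library, a ratio of 11.4 (10.3 to 12.5), and 383 against 278 in the iron-positive library, a ratio of 1.38 (1.24 to 1.52). Its iron-negative level rose 6.47 times from the shallowest to the deepest bin, more than the depth, and its iron-positive level rose 4.02 times, less than the depth. The iron-negative expectation for Col15a1 rests on 82 stromal cells, of which 12 were endothelial. Col7a1 had 31 UMIs against 2.89 expected in the iron-negative library, a ratio of 10.7 (7.30 to 15.2). In the iron-positive library it had 48 against 22.9, a ratio of 2.09 (1.54 to 2.77), so its interval there includes values under the 2 times asked for. Col9a3 and Col20a1 had between 14 and 31 UMIs in each library, and Col4a4 had 10 in the iron-negative library.

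Phagocyte states were ranges of a marker score rather than types: 4641 and 4073 phagocytes received 1 of 9 states, and 19.7% and 15.7% of the phagocytes lay near the limits. Col14a1 was highest in the same state in both libraries, while the order of the other states differed. In cells high for Fcrls and Cx3cr1, genes known from resident macrophages, it was 42.9 CPM in the iron-negative library (40.0 to 46.0) and 35.0 CPM in the iron-positive library (29.1 to 41.9). In cycling cells it was 31.2 and 17.1 CPM, and in cells high for MHC class II it was 17.3 and 17.9 CPM. In the state high for Ly6c2 and Plac8, genes of recruited monocytes, it was 1.88 CPM (0.756 to 3.87) and 2.02 CPM (0.656 to 4.72), and in the remaining 5 states it was at most 7.55 and 4.30 CPM. Col1a1 spread less, from 3.75 to 10.6 CPM over the states of the iron-negative library and from 15.3 to 33.9 CPM in the iron-positive library, with its highest value in the Cd209f Cd163 Lyve1 state in both. Depth differed between states as well, with medians of 14725 and 11073 UMIs in the Fcrls Cx3cr1 state and 8161 and 6241 in the Ly6c2 Plac8 state. CPM takes the total into account, and the part of depth beyond that was not tested.

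**Figure D5:**
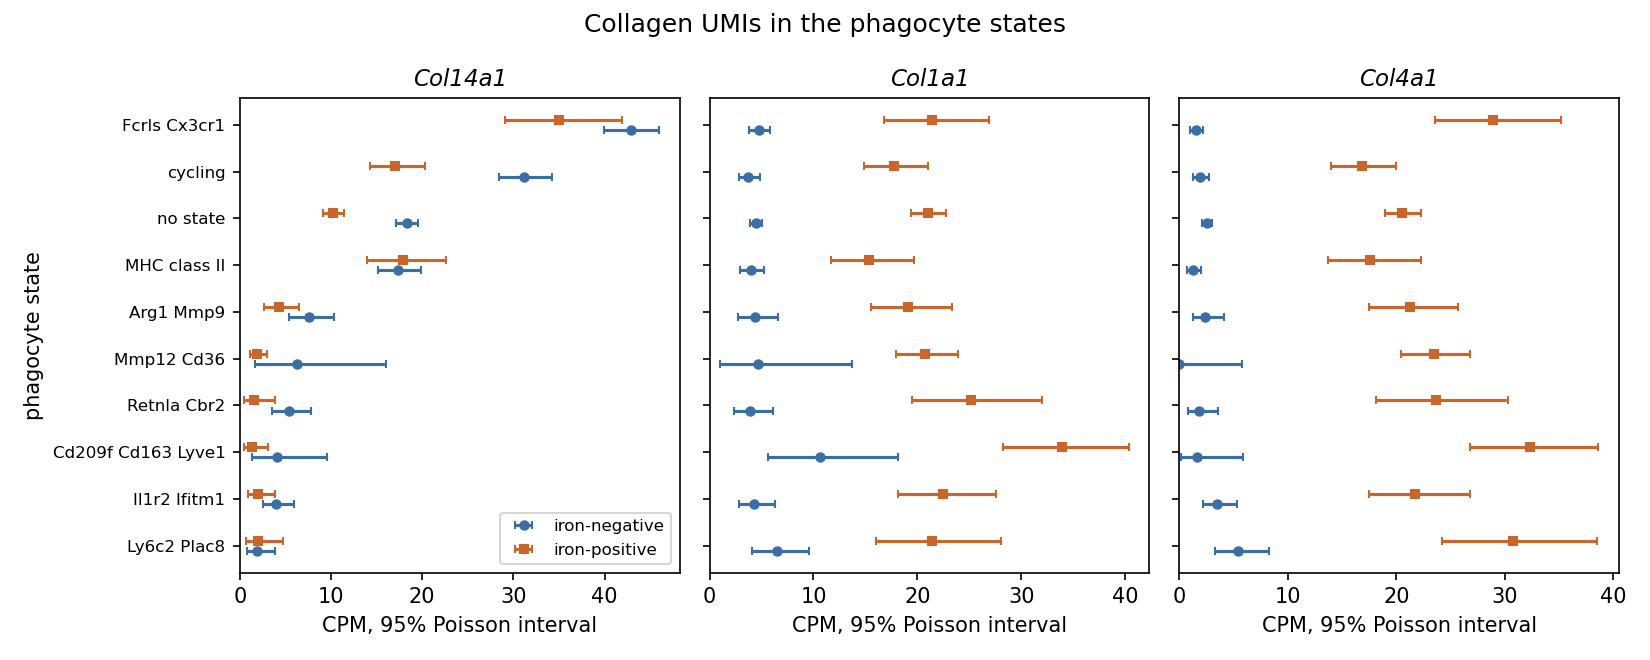
Points give CPM of Col14a1, Col1a1 and Col4a1 in the 9 phagocyte states and in phagocytes with no state, with 95% Poisson intervals, for the iron-negative (circles) and iron-positive (squares) libraries. Col14a1 is highest in the Fcrls Cx3cr1 state in both libraries (42.9 and 35.0 CPM), while Col1a1 and Col4a1 are higher in the iron-positive library in each of the 9 states.

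Between the libraries, 6 chains reached 10 CPM in the phagocytes of either. Of these, 5 were at least 2-fold higher in the iron-positive library, where 1.27% of all genes were, and 1 was at least 2-fold lower, where 0.0389% were. Col1a1 was 21.1 CPM against 4.46 CPM, a ratio of 4.74, Col1a2 was 16.9 against 5.07 CPM (3.33) and Col3a1 was 18.1 against 4.59 CPM (3.94). Col4a1 was 22 against 2.23 CPM (9.85), and Col4a2 was 15.7 against 1.55 CPM (10.2). Among these 5 chains the basement membrane pair thus had the highest ratios. Higher ratios were not particular to that pair. Among chains under 10 CPM with at least 100 iron-positive UMIs, ratios ran from 0.710 (Col11a2) to 11.1 (Col12a1). The 3 anchor genes that reached 10 CPM were higher too: Igfbp7 24.9 times, Sparc 8.28 times and Bgn 2.64 times. The 13 anchors under 10 CPM ranged from 0.942 times (Nid2), 1.05 times (Tpm2) and 1.86 times (Cald1) to 23.9 times (Ptprb). The stromal cells captured also differed, with 657 against 12 endothelial cells, and the part of free RNA in the 5 ratios was not tested beyond the expected levels above. Iron-positive phagocytes had a ratio of Col4a1 to Col1a1 UMIs of 1.04 (0.969 to 1.12), and iron-negative phagocytes one of 0.501. Among iron-positive stromal classes it was 3.29 for endothelial cells, 1.77 for pericytes and 0.0459 for mesenchymal cells. Of 11298 endothelial Col1a1 UMIs, 11165 came from the 171 cells with 2 or more markers of another stromal class. The other 486 endothelial cells held 18376 Col4a1 and 133 Col1a1 UMIs, so the endothelial ratio depends on which cells are counted. The source of the phagocyte UMIs was not tested with these ratios.

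Col14a1 was the chain that was lower, at 9.5 against 21.2 CPM, a log2 ratio of -1.16 (-1.28 to -1.04). Its mesenchymal level went the other way, at 92.3 against 55.1 CPM. The make-up of the phagocytes moved with the difference: the Fcrls Cx3cr1 state took 14.7% of iron-negative phagocytes (13.9 to 15.4) and 4.42% of iron-positive phagocytes (3.95 to 4.93). Within that state the iron-positive level was 0.817 times the iron-negative one (0.669 to 0.990), within the MHC class II state 1.03 times (0.774 to 1.35), within cycling cells 0.547 times (0.446 to 0.666) and in cells with no state 0.558 times (0.488 to 0.637). The difference was therefore present within some states and within counting error in others.

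Genes that process, cleave or bind collagen were taken as a list of 46. Serpinh1, the collagen chaperone of the endoplasmic reticulum, was 716 to 948 CPM in the iron-positive stromal classes, and 1.96 and 9.15 CPM in iron-negative and iron-positive phagocytes. By the marking rule, mesenchymal cells were marked by 3 of the 29 members at 50 CPM, against 2.96% of all genes, namely Lox and Loxl1, which crosslink fibrils, and Mmp2, a gelatinase. Lox was 468 CPM there and at most 26.4 CPM in the other classes. Phagocytes were marked by 2 of 12, against 9.85% of all genes. These were Mrc1, a receptor that takes up collagen fragments, whose marking the gate fixed because it is a gate gene, and Lair1, an inhibitory collagen receptor, at 196 CPM against at most 7.98 CPM elsewhere. Endothelial cells were marked by 0 of 15 members at 50 CPM, against 4.41% of all genes, and pericytes by 0 of 20, against 2.81%. Itga1, a member of the list, was 810 CPM in pericytes, 4.92 times the next class and short of the 5 times asked for. Between the libraries, 2 of 18 measured members were at least 2-fold higher in iron-positive phagocytes (1.27% of all genes) and 0 were lower (0.0389%). The 2 were P4ha2, a prolyl hydroxylase subunit (12.3 against 4.45 CPM), and Mmp8, the neutrophil collagenase (34.2 against 1.82 CPM). The granulocyte marker list moved with Mmp8, at 113 against 56.5 CPM summed in the phagocytes, and its part in the result was not tested. In mesenchymal cells 4 of 34 were higher (3.94% of all genes), P4ha3, Bmp1, Adamts2 and Loxl1, and 0 were lower (2.03%).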

How the data were processed

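For 2 libraries the authors deposited UMI counts, whole numbers for each gene in each called cell, and did not normalize them, as the values show. Reads were processed with Cell Ranger on mm10, per the submitters' processing notes. Version 3.1.0 stands in those notes and 5.0.0 in the file headers, and which made the counts was not settled. The annotation and use of strand are not given in the sources used here.

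Stromal cells needed 3 markers of their own class, the largest share of its list and under 10 phagocyte-marker UMIs per 10000. Phagocytes needed 4 of 10 markers, at least that share and at most 1 marker of each stromal class. These limits were set after the marker distributions were seen. The chains, lists and tests were chosen with earlier results of these data known. Counts were summed per class and library and given as CPM with exact Poisson or binomial intervals. No test across samples was possible with 1 library per group. Library ratios are log2 with 0.5 added to each count. A phagocyte state is the highest of 9 standardised marker scores, at least 1 and 0.5 above the next. Named genes were all chains at 50 CPM or more in a class of at least 50 cells, those between 10 and 50 CPM by values or range, chains above free RNA in phagocytes, and up to 4 members of other lists with the largest ratio in each direction. Chains under 10 CPM that are named beyond that rule, and the anchors named, were chosen after their values were seen. Alternatives changed the marker minimum, the mitochondrial limit, the weighting of cells, the depth, the CPM minimum, the ratio asked for, the count added and the anchors. Ratios and intervals were tested on simulated data with known folds. Locations are from GENCODE M21 (mm10). Python 3.11.15, numpy 2.4.6, scipy 1.17.1 and pandas 2.3.3 were used.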

Additional observations from a re-analysis of the deposited data

Results flagged for a closer look

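Col14a1 moved in opposite directions between the libraries in 2 classes of cells. Its log2 ratio of iron-positive over iron-negative was -1.16 in phagocytes and 0.74 in mesenchymal cells, and the difference was not tested, since each group holds 1 library. With the mean of each cell's CPM in place of summed counts, the mesenchymal log2 ratio was -0.00421, so the opposite direction was not kept under that weighting.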

How the results depend on the processing

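No paired analysis was possible because each group has 1 library. Of 285 values under the alternatives, 96 comparison values and 126 single-chain values stayed within counting error or within 1.5 times of a count, including values that an alternative does not touch. Of 11 alternatives 4 leave the phagocyte log2 ratios identical and could not turn them, and the other 7 kept the direction of all 6 chains, with Col14a1 from -1.35 to -1.05 and Col4a1 from 3.28 to 3.50. Chains marking mesenchymal cells (4 above) numbered 7 with the mean of each cell's CPM, 7 at 3 times the other classes, 7 at a minimum of 10 CPM, 7 in cells with at most 1 marker of each other stromal class (added after seeing the data) and 0 at 10 times. Col6a4 made 1 pericyte chain at a minimum of 10 CPM. With only genes at 50 CPM or more, 0 chains were higher and 0 lower in phagocytes, since none of the 6 reaches that level. Thinned to 1000 UMIs per cell, 7 chains were higher and 1 lower in mesenchymal cells. Col14a1 in mesenchymal cells turned to -0.00421 (log2) with the mean of each cell's CPM, and the cause was not tested. Phagocyte collagen over the free RNA level, without Col14a1 and Col11a2, was 1.02 with the mean of each cell's CPM, 0.727 thinned and 0.719 with at most 1 marker of each other stromal class in the iron-negative library. In the iron-positive library it was 1.11 thinned, 0.916 without the 5% of cells with the most UMIs, 0.949 in phagocytes with no stromal marker, 1.08 with at most 1 marker and 1.03 with anchors other than Sparc, Timp3 and Cavin1. Chains above both levels fell to 3 thinned in each library, and to 3 in iron-positive phagocytes with no stromal marker. Thinning left out 62 and 165 phagocytes and 1 and 12 mesenchymal cells under 1000 UMIs. The lymphoid comparison is limited by 22 and 70 cells.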
